A study of Homo sapiens with 12 samples.

Results

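JUN, JUNB and JUND are the 3 genes of the JUN family among 62702 genes of the count table, and were taken by their gene IDs. Their proteins are basic leucine zipper (bZIP) transcription factors. A JUN protein pairs with another JUN protein, a FOS protein or another bZIP protein to form AP-1, which binds short DNA sites in promoters and enhancers of growth, matrix and stress genes. JUN and JUNB belong to the immediate early genes, which serum or stress switches on within the first hour, whereas JUND is expressed more steadily in resting cells. JNK kinases activate JUN and JUND by phosphorylation, and ubiquitin ligases remove the proteins.

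Polyadenylated RNA of 786-O, a line from a human clear cell kidney carcinoma without functional VHL, was sequenced from its 3′ ends in 12 barcoded libraries (BRB-seq). Lines carrying inducible shRNAs against JUN, JUNB and JUND (shJUNs), against HIF2A, the protein of EPAS1 (shHIF2A), and against YAP and TAZ, the proteins of YAP1 and WWTR1 (shYAPTAZ), were set beside the parental line, with 3 libraries each. All lines received doxycycline for 72 hours. The derived lines had been selected with puromycin, blasticidin or hygromycin, which the parental line lacked as far as the labels tell. The labels do not say whether a line is 1 clone or a pool. Cells with a non-targeting shRNA were not analysed here. The labels call the replicates technical, so p-values measure the spread between these libraries.

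Libraries held 2272459 to 4469956 counts, and each JUN gene had at least 128 counts in every library. Parental replicate 1 and shYAPTAZ replicate 1 had the lowest total of their groups and the lowest mean correlation with the other libraries of the group (0.94 and 0.917 over 8849 genes, against 0.95 to 0.954 and 0.921 to 0.94 for the others). The margin to shYAPTAZ replicate 3 was small. Results are also given without both, a choice made after the values of JUN and JUNB in them were seen, where that changes a call. Levels are CPM, counts scaled to a library of standard size by TMM, a factor that evens out library composition. A gene was called when edgeR's quasi-likelihood test gave a Benjamini-Hochberg adjusted p under 0.05 over all 12301 genes tested, and adjusted p-values below come from that test. Of 10 renal tubule and carcinoma markers, 9 had a count in every group and LRP2 had none. PAX8 lay between 79.6 and 113 CPM in the 12 libraries and was not called. The keratins KRT8 and KRT18 were called higher in shJUNs (626 and 417 CPM, against 185 and 119 CPM in parental cells) and in shHIF2A, KRT8 also in shYAPTAZ, and VIM was lower in shHIF2A. Among blood cell markers CD3E had no count, PTPRC 1, HBB 30 and CD68 43 counts in all. Of 4 endothelial markers PECAM1 and CDH5 had no count, VWF 4 and KDR 7, with summed levels of at most 0.964 CPM. The summed level of 4 neural markers was 10.7 to 16.4 CPM in shJUNs, 4.05 to 11.2 CPM in shHIF2A, 13.3 to 36.8 CPM in shYAPTAZ and 4.52 to 8.72 CPM in parental cells, and the part of these markers in the results was not tested.

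Each JUN gene has 1 transcript of a single exon in the basic annotation of GENCODE release 29. In the coordinates of the deposited table (hg38), JUN (ENSG00000177606) lies on the minus strand of chromosome 1 from 58776845 to 58784048. JUNB (ENSG00000171223) lies on the plus strand of chromosome 19 from 12791486 to 12793315, and JUND (ENSG00000130522) on the minus strand of chromosome 19 from 18279694 to 18281622. That table lists JUN in 5 pieces and JUND in 3, so its gene models differ from the GENCODE transcripts. The longest run of identical bases shared by 2 of the GENCODE transcripts was 20 bases, between JUN and JUNB. Within the last 500 bases of the GENCODE transcripts no pair shared more than 11. The pentamer ATTTA, a mark of short-lived mRNAs when it lies near the 3′ end, occurred 2 times in the last 500 bases of JUN, 2 times in JUNB and 1 time in JUND. At least 2 copies stood in the same window of 27.6% of 19416 protein-coding transcripts, and at least 1 in 54.7%.

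The promoters are shown because the levels of these genes differ between lines with shRNAs against different transcription factors or cofactors. Each run is the 250 bases before the RefSeq start (GRCh38.p14), 5′ to 3′ on the strand of the gene, chr1:58784048-58784297 for JUN, chr19:12791236-12791485 for JUNB and chr19:18281623-18281872 for JUND. Capitals mark TGACNTCA, the cAMP response element and its JUN variant.
JUN: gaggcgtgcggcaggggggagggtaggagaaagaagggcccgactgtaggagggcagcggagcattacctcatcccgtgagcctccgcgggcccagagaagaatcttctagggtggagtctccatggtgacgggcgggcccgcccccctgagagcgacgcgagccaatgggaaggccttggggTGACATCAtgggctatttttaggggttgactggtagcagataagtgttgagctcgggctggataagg
JUNB: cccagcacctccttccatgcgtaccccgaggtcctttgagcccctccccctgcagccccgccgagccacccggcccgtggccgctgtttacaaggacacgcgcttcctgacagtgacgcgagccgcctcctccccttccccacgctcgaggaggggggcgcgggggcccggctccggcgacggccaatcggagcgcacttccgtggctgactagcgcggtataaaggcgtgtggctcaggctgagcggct
JUND: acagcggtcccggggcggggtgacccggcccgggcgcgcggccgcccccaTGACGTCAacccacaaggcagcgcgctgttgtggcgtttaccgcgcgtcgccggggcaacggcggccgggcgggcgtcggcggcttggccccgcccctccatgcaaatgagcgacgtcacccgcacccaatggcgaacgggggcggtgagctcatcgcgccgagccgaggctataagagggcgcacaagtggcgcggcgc

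JUN held TGACATCA 67 to 60 bases before its start, the proximal site through which JUN and ATF2 dimers are known to act on the JUN gene itself. JUND held TGACGTCA 200 to 193 bases before its start, and JUNB had no match. On either strand, TGACNTCA stood in 6.87% of 35116 promoter windows of the same length. Searches of both strands for TGACTCA, the classical AP-1 site (4.2% of windows), ACGTG, the core of a HIF site (18.5%), and GGAATG, a TEAD site (11.9%), found none in the 3 windows. None of these motifs contains another. A match is a description of the sequence and not evidence of binding.

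JUND, the member that often acts as a steady partner in AP-1, was by far the most reduced in shJUNs. Its level was 39.5, 34.2 and 42.0 CPM in the shJUNs libraries, against 310, 390 and 366 CPM in the parental libraries. Every shJUNs library lay far below every parental one, and 39.5% of genes tested had no overlap in this comparison. The mean was 38.6 ± 3.998 CPM in shJUNs and 355 ± 41.0 CPM in parental cells (SD, n = 3 each), which left 10.9% of the parental level (95% interval 8.51% to 13.9%). The log2 change was -3.20 with an SE of 0.17 (adjusted p = 1.41e-11), and 0.496% of genes tested were called lower by at least as much. In bulk RNA, fewer cells with a transcript and less of it per cell cannot be told apart.

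JUN, the founding member and main target of JNK, was lower in shJUNs by less. It measured 78.1, 85.7 and 93.0 CPM in shJUNs, against 137, 172 and 150 CPM in parental cells, with no overlap. This left 56.0% of the parental level (95% interval 43.2% to 72.5%), a log2 change of -0.84 with an SE of 0.18 (adjusted p = 0.00215). JUNB, which can oppose JUN in growth control, measured 103, 111 and 125 CPM in shJUNs, against 97.0, 213 and 266 CPM in parental cells. Parental replicate 1 lay below all 3 shJUNs libraries and the other 2 parental libraries lay above them. The log2 change of JUNB was -0.76 with an SE of 0.24 (adjusted p = 0.034), leaving 58.9% of the parental level (95% interval 41.3% to 84.0%). Over the libraries left out in turn, the log2 change of JUNB ran from -1.08 without parental replicate 1 to -0.45 without parental replicate 3, and its adjusted p from 0.000115 to 0.2. The call also ended without any 1 of the 3 shJUNs libraries (adjusted p = 0.0619 to 0.118), and limma-voom did not make it (0.0782). All 3 shRNA targets were called lower in shJUNs by edgeR and 2 of 3 by limma-voom, and edgeR called 8.93% of genes tested lower.

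**Figure D1:**
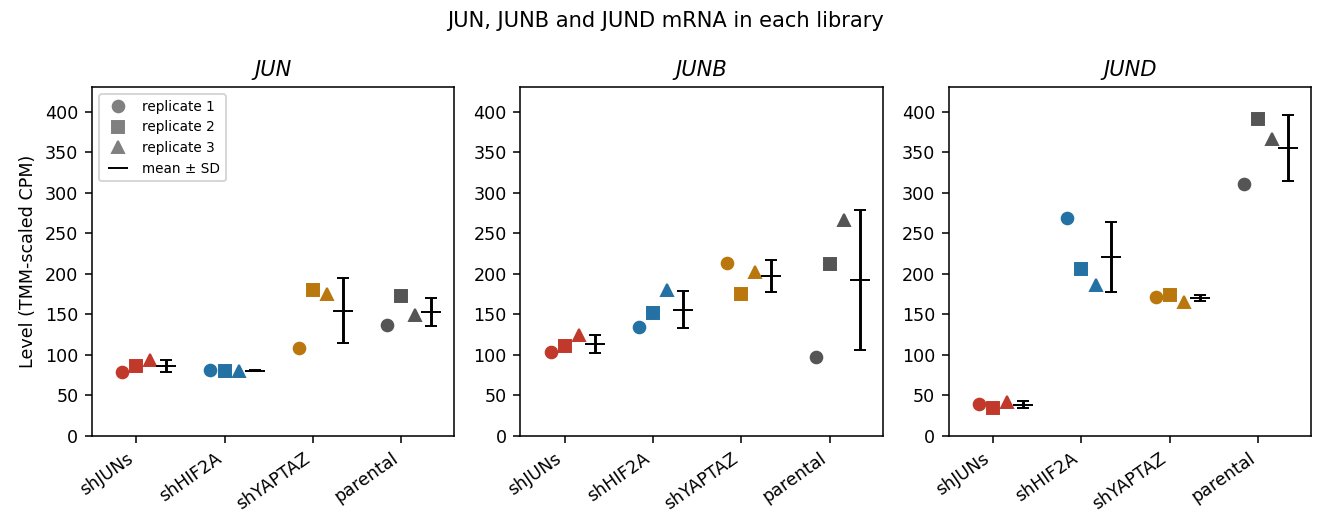
Level of JUN, JUNB and JUND in TMM-scaled CPM (vertical axis) in each of the 12 libraries by group, with symbols for replicate numbers and black bars for the mean ± SD of 3 libraries. JUND in shJUNs sits at 34.2 to 42.0 CPM against 310 to 390 CPM in parental cells, while for JUNB parental replicate 1 at 97.0 CPM lies below the shJUNs libraries.

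The parental spread of JUNB was the widest of the 3 members, a coefficient of variation of 45.0% against 11.6% for JUN and 11.5% for JUND. Other immediate early genes were examined in the same libraries, taking the 4 of highest mean level. CCN1, a secreted matrix protein, measured 705, 1819 and 1893 CPM in parental replicates 1 to 3. KLF6, a zinc finger factor, measured 364, 541 and 622 CPM, and IER3, a survival protein of the early response, 111, 204 and 245 CPM. DUSP1, the phosphatase that switches off JNK and p38, measured 451, 475 and 340 CPM. Parental replicate 1 was thus the lowest for JUNB, CCN1, KLF6 and IER3, and not for DUSP1. The other tested early genes went both ways. Parental replicate 1 was the highest for IER5 (90.7, 61.6 and 58.2 CPM) and PPP1R15A (76.4, 42.7 and 31.4 CPM). It was also the highest for ZFP36, ATF3, BTG2, KLF4, NR4A1 and FOS. It was the lowest for IER2 (19.9, 36.0 and 27.4 CPM), CCN2 and EGR1, and lay between the others for KLF2 and KLF10. The part of these differences between parental libraries in the JUNB result was not tested.

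The line with the HIF2A shRNA was compared with the parental line next. JUN measured 80.6, 80.5 and 79.5 CPM in shHIF2A, all below the parental 137 to 172 CPM. No overlap was seen for 36.1% of genes tested. JUN was left at 52.4% of the parental level (95% interval 40.3% to 68.1%, adjusted p = 0.00103). JUND measured 269, 206 and 186 CPM, also with no overlap with the parental libraries, and was left at 61.9% (49.6% to 77.3%, adjusted p = 0.00312). JUNB measured 135, 152 and 180 CPM and lay within the parental range, with a log2 change of -0.31 (95% interval -0.82 to 0.20, adjusted p = 0.414). Without parental replicate 1 the log2 change of JUNB was -0.63 and passed (adjusted p = 0.0154), and without parental replicate 3 it was 0.00289. Of the 3 members 2 were called lower, against 8.8% of genes tested. The 3 comparisons with parental cells share the same 3 parental libraries.

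In shYAPTAZ the JUND level was 172, 173 and 165 CPM, a narrow range that lay below every parental library. No overlap was seen for 36.2% of genes tested. It was left at 47.8% of the parental level (95% interval 38.2% to 59.9%), a log2 change of -1.06 with an SE of 0.16 (adjusted p = 2.71e-05). JUN measured 108, 180 and 175 CPM in shYAPTAZ, so that replicate 1 lay below and the other 2 above every parental library. Its log2 change was 0.02 (95% interval -0.35 to 0.39, adjusted p = 0.951). JUNB measured 213, 175 and 202 CPM, inside the parental range, with a log2 change of 0.03 (-0.48 to 0.54, adjusted p = 0.942). Without parental replicate 1 these were -0.05 for JUN and -0.29 for JUNB, and neither passed. JUND was the 1 member of 3 called lower, and 12.3% of genes tested were called lower.

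The knockdown lines were then compared with each other. JUND was lower in shJUNs than in shHIF2A by 2.51 on the log2 scale (SE 0.17, adjusted p = 1.61e-09), and 3.17% of genes tested were called lower there. It was lower in shJUNs than in shYAPTAZ by 2.14 (SE 0.17, adjusted p = 4.59e-09). JUN was at 107% of its shHIF2A level in shJUNs, a log2 difference of 0.09 (95% interval -0.28 to 0.47, adjusted p = 0.824). The interval allows a level from 82.1% to 139%, so equal levels were not shown, and no detection limit was computed. Against shYAPTAZ, JUN in shJUNs had a log2 change of -0.86 and JUNB one of -0.80 (adjusted p = 0.00205 and 0.0317), so that all 3 members were called lower, against 7.87% of genes tested. The JUNB call in that comparison ended when any 1 shJUNs or shYAPTAZ library was left out, with adjusted p-values from 0.0544 to 0.116.

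JUNB in shJUNs lay below every shHIF2A library, where 31.2% of genes tested had no overlap, but its log2 difference of -0.46 had a 95% interval from -0.97 to 0.06 (adjusted p = 0.299). It passed in a fit of those 6 libraries alone (0.0323) and without parental replicate 1 and shYAPTAZ replicate 1 (0.0415). Between shYAPTAZ and shHIF2A, JUN was higher in shYAPTAZ by 0.95 on the log2 scale (SE 0.18, adjusted p = 0.000765), and 9.71% of genes tested were called higher. JUND differed by -0.37 (95% interval -0.70 to -0.05, adjusted p = 0.101) with no overlap, as was seen for 32.2% of genes tested, and JUNB by 0.34 (-0.17 to 0.85, adjusted p = 0.378).

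**Figure D2:**
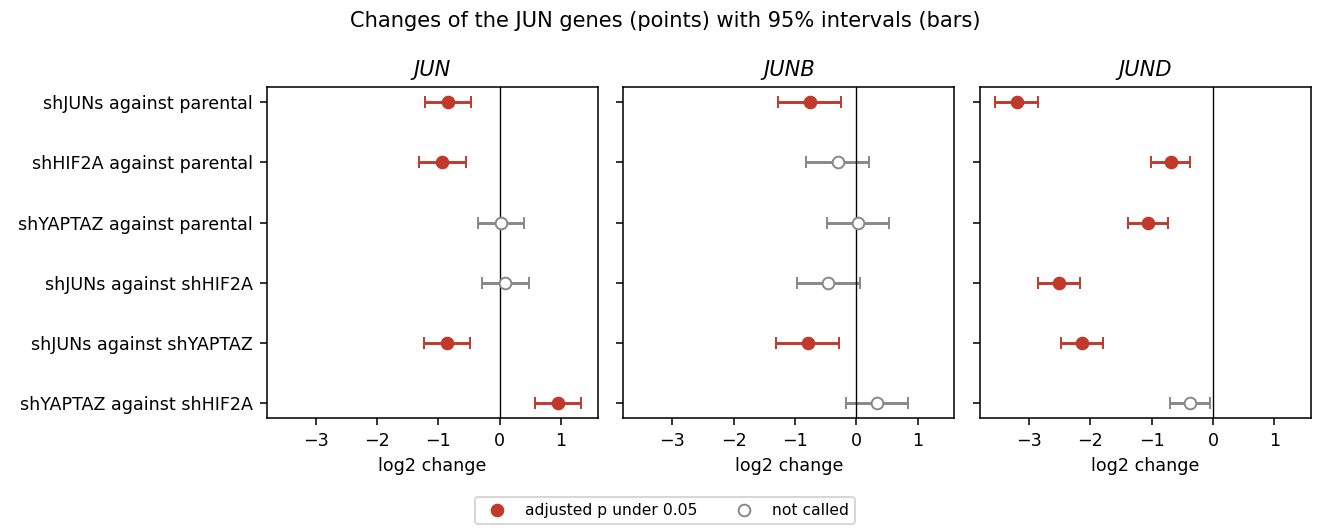
Log2 change (horizontal axis) of JUN, JUNB and JUND in the 6 comparisons, with points for the edgeR estimate, bars for its 95% interval and filled red points where the adjusted p is under 0.05. JUND in shJUNs against parental stands at -3.20, and JUN in shJUNs against shHIF2A at 0.09 with an interval that spans 0.

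Whether the members changed unequally was tested on the log2 ratio of their counts within a library. The size of such a ratio depends on how each transcript is captured, so differences between groups were read and not the ratio itself. The log2 ratio of JUND to JUN was -1.15 ± 0.17 in shJUNs, 1.44 ± 0.27 in shHIF2A, 0.17 ± 0.43 in shYAPTAZ and 1.22 ± 0.06 in parental cells (SD, n = 3 each). Over all 15400 divisions of 12 libraries into 4 groups of 3, an exact permutation test of the spread between groups gave p = 0.00013, adjusted to 0.00039 over 3 ratios. The ratio in shJUNs was 2.37 log2 units below that in parental cells with no overlap, and in shYAPTAZ 1.04 below with no overlap. In shHIF2A it was 0.22 above and overlapped the parental range, JUN and JUND being both lower there.

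The log2 ratio of JUND to JUNB was -1.55 ± 0.16 in shJUNs, 0.49 ± 0.48 in shHIF2A, -0.21 ± 0.17 in shYAPTAZ and 1.00 ± 0.62 in parental cells (SD, n = 3 each). The same exact permutation test gave p = 0.000974, adjusted to 0.00146. For JUNB to JUN the ratios were 0.40 ± 0.02, 0.94 ± 0.22, 0.38 ± 0.53 and 0.21 ± 0.67 in shJUNs, shHIF2A, shYAPTAZ and parental cells. They did not differ beyond the spread of libraries (exact permutation p = 0.275, adjusted p = 0.275). A pair of groups of 3 alone cannot give an exact p under 0.1. The summed level of the 3 members was 221, 231 and 260 CPM in shJUNs, 484, 438 and 446 CPM in shHIF2A, 493, 528 and 543 CPM in shYAPTAZ, and 544, 775 and 781 CPM in parental cells.

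**Figure D3:**
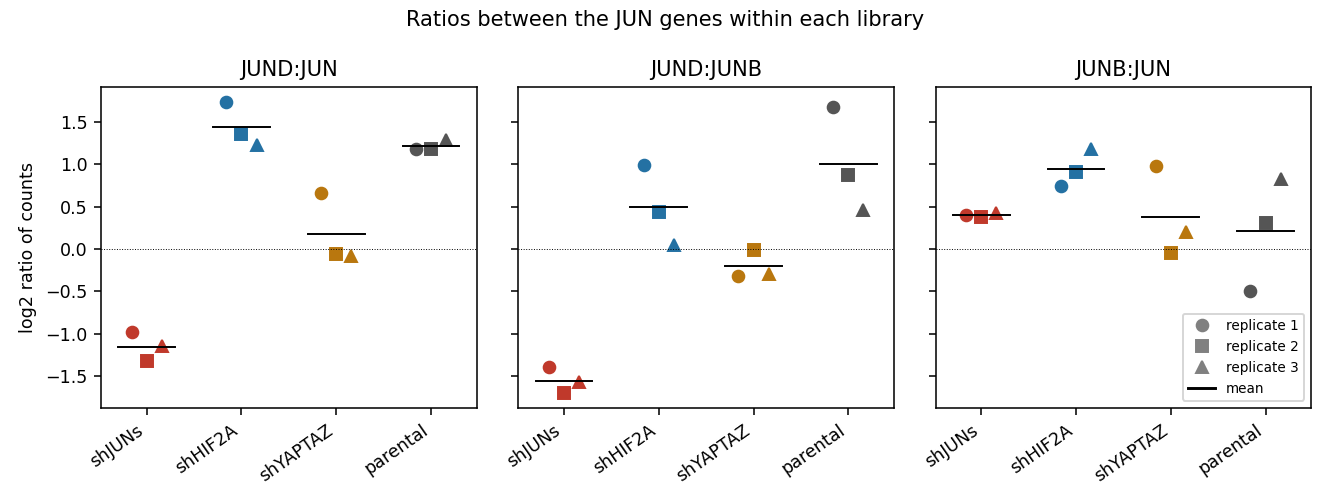
Log2 ratio of counts (vertical axis) between pairs of JUN genes in each library, by group, with black lines for group means. JUND relative to JUN averages -1.15 in shJUNs, 0.17 in shYAPTAZ and 1.22 in parental cells, while JUNB relative to JUN overlaps between all groups and parental cells.

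Genes of the FOS family, whose proteins form AP-1 with JUN proteins, were examined next. None of the 3 measured FOS family genes was called in any knockdown by edgeR, at an unadjusted p under 0.05, by DESeq2 or by limma-voom. FOSL2 averaged 113 ± 10.7 CPM in shJUNs, 129 ± 18.4 CPM in shHIF2A, 138 ± 13.0 CPM in shYAPTAZ and 133 ± 14.9 CPM in parental cells (SD, n = 3 each). FOSL1, itself an AP-1 target, averaged 43.9 ± 10.5 CPM in shJUNs, 39.5 ± 26.9 CPM in shHIF2A, 27.3 ± 22.2 CPM in shYAPTAZ and 63.1 ± 16.9 CPM in parental cells. With the replicate number as a block, FOSL1 was called lower in shHIF2A (log2 change -0.84, adjusted p = 0.0189) and shYAPTAZ (-1.38, 0.000239). FOS stayed low, between 0.624 and 9.64 CPM in every library, and FOSB had 3 counts in all.

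Genes of other bZIP proteins were read as a further list, and whether each of these proteins pairs with a JUN protein was not examined. Of 10 measured genes in it, 4 were lower in shJUNs, 6 in shHIF2A and 7 in shYAPTAZ. None was called higher by edgeR, DESeq2, limma-voom or at an unadjusted p under 0.05. Of all genes tested, 8.93%, 8.8% and 12.3% were called lower in these comparisons. Median log2 changes were -0.52, -0.61 and -0.85, against -0.001, 0.005 and 0.022 over all genes tested. MAFF, a small MAF protein without an activation domain, averaged 2.70 ± 0.618 CPM in shJUNs, 5.44 ± 5.00 CPM in shHIF2A and 7.48 ± 4.97 CPM in shYAPTAZ, against 32.2 ± 4.05 CPM in parental cells (SD, n = 3 each, adjusted p = 0.000113, 0.00182 and 0.00553). ATF3, a bZIP protein induced by stress, averaged 9.14 ± 2.19 CPM in shJUNs, 13.4 ± 1.97 CPM in shHIF2A and 4.67 ± 3.35 CPM in shYAPTAZ, against 31.4 ± 6.37 CPM in parental cells (adjusted p = 0.00341, 0.0362 and 0.000101). ATF2 fell 1.63-fold in shJUNs, 1.8-fold in shHIF2A and 1.71-fold in shYAPTAZ, and a link to the JUN level was not tested. MAF, a large MAF factor, fell 2.11-fold in shJUNs, 2.2-fold in shHIF2A and 2.39-fold in shYAPTAZ. The ATF2 call in shJUNs ended without parental replicate 1 and shYAPTAZ replicate 1 (adjusted p = 0.107).

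The kinase cascades that lead to JUN phosphorylation were read next. Of 11 genes of the JNK and ERK cascades edgeR called 0 in shJUNs and 0 in shHIF2A, while 2 and 1 were lower at an unadjusted p under 0.05, DESeq2 called 1 and 0, and limma-voom 0 and 0. In shYAPTAZ 1 was lower, MAP3K1, an upstream kinase of JNK, at 12.3 ± 5.71 CPM against 26.7 ± 12.002 CPM in parental cells (SD, n = 3 each, adjusted p = 0.0272). That is 9.09% of the list, against 12.3% of all genes tested. In shJUNs and shHIF2A 8.93% and 8.8% of all genes tested were called lower. MAPK8, the gene of JNK1, averaged 39.8 ± 11.6, 41.5 ± 10.9 and 29.6 ± 8.56 CPM in shJUNs, shHIF2A and shYAPTAZ, against 44.4 ± 5.90 CPM in parental cells. It did not pass in any of them. MAP3K4, another upstream kinase of JNK, averaged 11.9 ± 1.49 CPM in shJUNs, 12.1 ± 3.06 CPM in shHIF2A and 20.9 ± 3.53 CPM in shYAPTAZ, against 20.9 ± 2.47 CPM in parental cells (adjusted p = 0.0723, 0.0849 and 0.992). MAP3K1, MAP3K4 and MAPK8 were named after their values were seen.

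Among 10 genes of turnover and cofactors, 1 was lower in shJUNs (10%). Of all genes tested, 8.93% were called lower in shJUNs, 8.8% in shHIF2A and 12.3% in shYAPTAZ. USP28, the deubiquitinase that counters the ligase subunit FBXW7, averaged 10.96 ± 2.13 CPM in shJUNs and 21.8 ± 5.42 CPM in parental cells (SD, n = 3 each, adjusted p = 0.0334). The call ended without parental replicate 1 and shYAPTAZ replicate 1 (adjusted p = 0.0601). edgeR called 0 in shHIF2A and 0 in shYAPTAZ, with 1 and 0 at an unadjusted p under 0.05 and 0 by DESeq2 and by limma-voom. MEN1, whose protein menin binds JUND, averaged 26.6 ± 3.70, 31.6 ± 6.23 and 28.0 ± 3.09 CPM in shJUNs, shHIF2A and shYAPTAZ, against 24.0 ± 4.20 CPM in parental cells, and was not called. MEN1 was named after its values were seen.

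**Figure D4:**
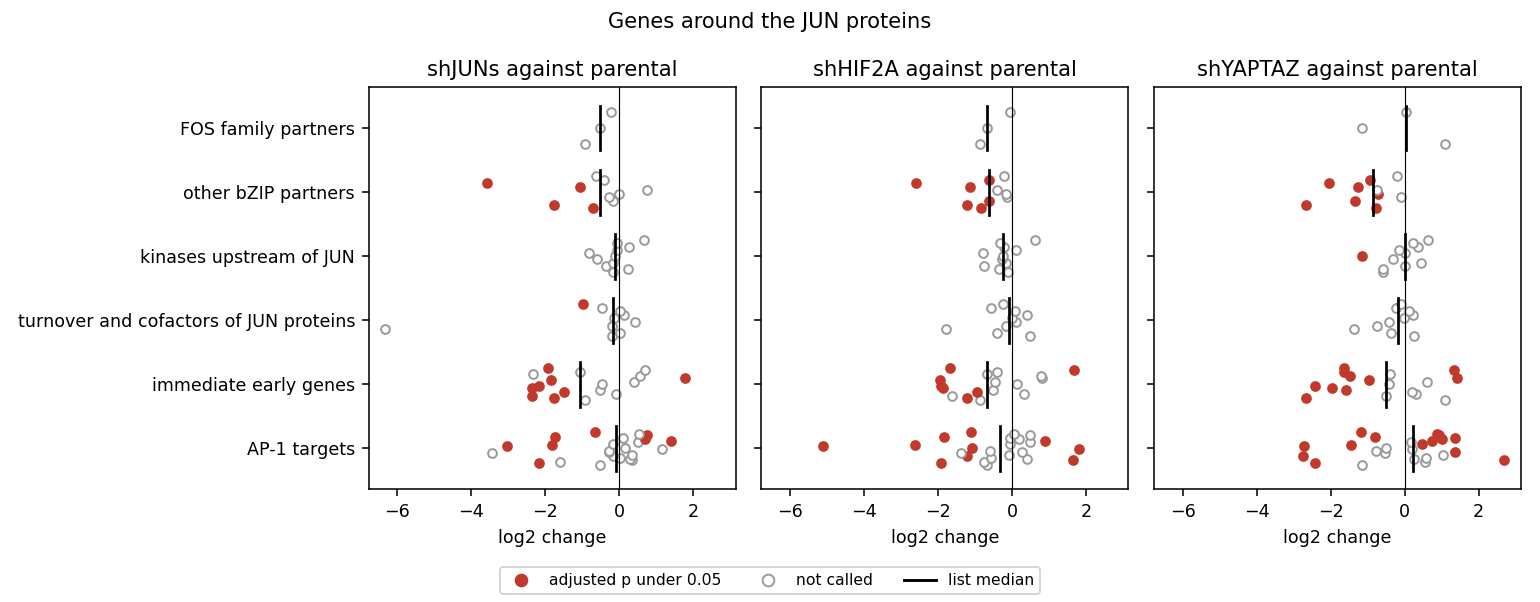
Log2 change (horizontal axis) of each measured gene in 6 lists around the JUN proteins, for the 3 knockdowns against parental cells, with filled red points at an adjusted p under 0.05 and a black line at the median of the list. The list labelled other bZIP partners has medians of -0.52, -0.61 and -0.85. No FOS family gene is called in this fit, though FOSL1 is with a replicate block in shHIF2A and shYAPTAZ.

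Among 17 immediate early genes 7 were lower and 1 higher in shJUNs, 6 lower and 1 higher in shHIF2A, and 8 lower and 2 higher in shYAPTAZ. Of all genes tested, 8.93% were lower and 10.3% higher in shJUNs, 8.8% and 9.84% in shHIF2A, and 12.3% and 13% in shYAPTAZ. Medians of the list were -1.05, -0.68 and -0.49, against -0.001, 0.005 and 0.022 over all genes. DUSP1 averaged 93.5 ± 8.71 CPM in shJUNs, 111 ± 8.87 CPM in shHIF2A and 77.7 ± 30.1 CPM in shYAPTAZ, against 422 ± 72.1 CPM in parental cells (SD, n = 3 each, adjusted p = 1.11e-07, 9.04e-07 and 1.81e-08). ZFP36, which destabilises mRNAs rich in A and U, was 4.81 ± 0.331 CPM in shJUNs, 6.78 ± 4.28 CPM in shHIF2A and 6.39 ± 2.45 CPM in shYAPTAZ, against 24.8 ± 6.77 CPM in parental cells. KLF6 was lower by 3.61-fold in shJUNs, 3.85-fold in shHIF2A and 1.96-fold in shYAPTAZ. PPP1R15A, a phosphatase subunit of the stress response, was lower by 3.8-fold in shJUNs, 3.17-fold in shHIF2A and 3.11-fold in shYAPTAZ. KLF10, an early gene of TGF-beta signalling, was higher at 102 ± 12.8 CPM in shJUNs and 77.2 ± 33.8 CPM in shYAPTAZ, against 29.4 ± 13.2 CPM in parental cells (adjusted p = 0.000804 and 0.00381). In shHIF2A it averaged 51.5 ± 14.9 CPM (adjusted p = 0.0978, and 0.0119 with a replicate block). The block also called CCN2, a matrix protein, higher in shJUNs (adjusted p = 0.0122, against 0.177 without it). CCN2 was called higher in shHIF2A and in shYAPTAZ by edgeR, DESeq2 and limma-voom. DESeq2 gave log2 changes of 1.68 (adjusted p = 8.43e-06) and 1.34 (0.00041), and limma-voom adjusted p-values of 0.00201 and 0.0102. CCN2 was named after its values were seen.

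Of 24 measured AP-1 targets 5 were lower and 3 higher in shJUNs, 7 lower and 3 higher in shHIF2A, and 6 lower and 8 higher in shYAPTAZ. In shJUNs that is 20.8% lower and 12.5% higher, against 8.93% and 10.3% of all genes tested. In shHIF2A it is 29.2% and 12.5%, against 8.8% and 9.84%, and in shYAPTAZ 25% and 33.3%, against 12.3% and 13%. Medians were -0.08, -0.33 and 0.23, against -0.001, 0.005 and 0.022 over all genes. The genes lower in shJUNs were CCND1 and VEGFA, which HIF2A also controls, DUSP1, TGFB1, a growth factor, and ETS1, a transcription factor. TGFB1 was 29.9 ± 7.64 CPM in shJUNs, 27.4 ± 3.53 CPM in shHIF2A and 57.6 ± 17.6 CPM in shYAPTAZ, against 99.1 ± 28.8 CPM in parental cells (SD, n = 3 each). HMOX1, the haem-degrading enzyme, was 1 of the 3 genes called higher in shJUNs. It was at 61.0 ± 3.58 CPM in shJUNs, 43.2 ± 3.24 CPM in shHIF2A and 38.3 ± 6.11 CPM in shYAPTAZ, against 23.2 ± 1.45 CPM in parental cells (adjusted p = 5.91e-05, 0.00498 and 0.015). The other AP-1 targets called higher are not named here. The ETS1 call in shJUNs ended with library totals alone (adjusted p = 0.0536), and the TGFB1 call in shYAPTAZ without parental replicate 1 and shYAPTAZ replicate 1 (0.058).

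The targets of the other lines were read beside the JUN genes. EPAS1 averaged 37.1 ± 1.20 CPM in shJUNs, 15.97 ± 3.58 CPM in shHIF2A and 113 ± 56.8 CPM in shYAPTAZ, against 203 ± 59.6 CPM in parental cells (SD, n = 3 each). It was called lower in shJUNs and shYAPTAZ as well as in shHIF2A. YAP1 averaged 57.1 ± 7.69 CPM in shJUNs, 46.1 ± 2.50 CPM in shHIF2A and 14.1 ± 6.65 CPM in shYAPTAZ, against 65.4 ± 6.61 CPM in parental cells, and was called in shYAPTAZ alone. WWTR1 averaged 441 ± 28.8 CPM in shJUNs, 504 ± 25.9 CPM in shHIF2A and 153 ± 14.6 CPM in shYAPTAZ, against 311 ± 66.1 CPM in parental cells. It was called higher in shJUNs and shHIF2A and lower in shYAPTAZ.

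Genes beside the JUN genes on the chromosome were read to see which moved with them. The deposited table lists 7 other genes within 100 kb of JUN, 22 of JUNB and 13 of JUND, of which 2, 9 and 4 had enough counts to be tested. Near JUN, MYSM1, a histone deubiquitinase, averaged 19.5 ± 3.61 CPM in shJUNs, 21.5 ± 7.01 CPM in shHIF2A and 10.2 ± 3.10 CPM in shYAPTAZ, against 20.6 ± 4.21 CPM in parental cells, and was called lower in shYAPTAZ (adjusted p = 0.0358), where JUN was not, and limma-voom did not call it. LINC02777, the other tested neighbour, was not called in any by edgeR, DESeq2 or limma-voom. LINC01135, a noncoding gene that starts 0.34 kb upstream of JUN on the other strand, had 22 counts in all libraries and was not tested.

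Near JUNB, the tested genes with the closest start sites, PRDX2, a peroxidase, and the antisense gene ENSG00000267062, were not called in shJUNs. The 2 overlap, and the sources used here do not give the strand setting of the counting, so their counts are uncertain. HOOK2, listed on the minus strand from 12763003 to 12872740, spans JUNB, and whether its exons overlap JUNB was not examined. DNASE2, a lysosomal nuclease 90.1 kb downstream, was lower in shJUNs at 43.6 ± 3.91 CPM against 101 ± 11.2 CPM in parental cells (adjusted p = 0.000175), and in shHIF2A at 65.8 ± 7.19 CPM (adjusted p = 0.0335). In shYAPTAZ the genes called near JUNB were PRDX2 at 127 ± 15.6 CPM against 202 ± 7.39 CPM (adjusted p = 0.00228) and TNPO2, a nuclear import factor (adjusted p = 0.00978), both lower in shYAPTAZ. FBXW9, TRIR, HOOK2 and GCDH were not called in any line by edgeR, DESeq2 or limma-voom. GET3, a chaperone of tail-anchored proteins, missed in shHIF2A with edgeR (log2 change 0.56, adjusted p = 0.0582) and was called higher by limma-voom (0.0472) and with a replicate block (0.0248).

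Near JUND, LSM4, an RNA-binding subunit whose start lies 41.5 kb upstream, averaged 228 ± 6.85, 215 ± 28.8 and 237 ± 52.8 CPM in shJUNs, shHIF2A and shYAPTAZ, against 202 ± 52.5 CPM in parental cells, and was not called. Further upstream, PGPEP1, a peptidase, was 9.36 ± 2.08 CPM in shJUNs and 7.54 ± 4.21 CPM in shYAPTAZ, against 31.4 ± 14.9 CPM in parental cells (adjusted p = 0.00539 and 0.00157). In shHIF2A it was 14.4 ± 4.08 CPM and missed with edgeR (adjusted p = 0.0617), while DESeq2 (0.0407) and the replicate block (0.0422) called it lower. GDF15, a secreted stress cytokine 93.1 kb upstream, was 55.0 ± 13.9 CPM in shJUNs, 47.1 ± 8.10 CPM in shHIF2A and 8.13 ± 0.166 CPM in shYAPTAZ, against 297 ± 118 CPM in parental cells (SD, n = 3 each, adjusted p = 2.8e-07, 1.8e-07 and 2.86e-11). MPV17L2, on the other side, was not called in shJUNs and was higher in shHIF2A (adjusted p = 0.0483) and shYAPTAZ (0.0245), though limma-voom called it in neither and library totals alone ended the call in shHIF2A (0.0517). In shJUNs 3 of the 15 neighbours were called, in shHIF2A 3 and in shYAPTAZ 6, against 19.3%, 18.6% and 25.3% of all genes tested.

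**Figure D5:**
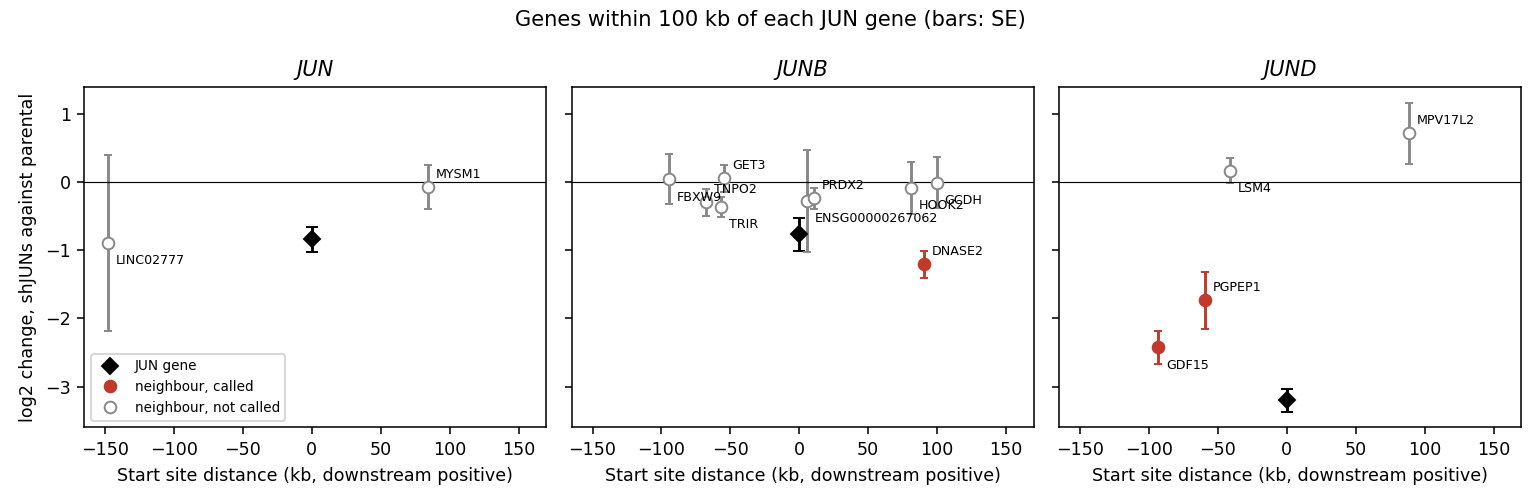
Log2 change in shJUNs against parental cells (vertical axis, bars are SE) of tested genes within 100 kb of each JUN gene, by distance between start sites in kb (positive is downstream on the strand of the JUN gene). JUND at -3.20 has LSM4 at 0.17 as its nearest tested neighbour, and GDF15 at -2.43 lies 93.1 kb upstream.

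Levels of the members followed each other only loosely over the 12 libraries, which share lines and groups. Pearson's r of log2 CPM was 0.50 for JUN and JUND, 0.52 for JUN and JUNB and 0.57 for JUNB and JUND. Among 8696 genes compared, those most like JUND were WWC2, GOLPH3L, LRPAP1, a chaperone of LDL receptor proteins, THG1L, a tRNA-modifying enzyme, and LEF1, a Wnt pathway factor, with r from 0.93 to 0.97. WWC2 averaged 17.7 ± 2.40 CPM in shJUNs, 42.8 ± 5.16 CPM in shHIF2A and 36.2 ± 2.40 CPM in shYAPTAZ, against 54.6 ± 4.47 CPM in parental cells. LEF1 had no count in shJUNs and averaged 15.1 ± 2.94 CPM in parental cells, at least 64.1-fold lower in shJUNs when 3 counts over its libraries are taken as the floor. Unlike JUND, LEF1 was not called in shHIF2A (13.0 ± 6.91 CPM) or in shYAPTAZ (17.0 ± 1.82 CPM).

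Most like JUN were TTYH3, PSIP1, a chromatin-binding protein, SMC4, a condensin subunit, RPA3, a subunit of the single-strand DNA binding complex, and RSRC1, with r from 0.92 to 0.93. PSIP1 averaged 80.1 ± 8.72 CPM in shJUNs, 76.2 ± 9.13 CPM in shHIF2A and 168 ± 20.3 CPM in shYAPTAZ, against 140 ± 2.69 CPM in parental cells. Most like JUNB were GLO1, a glyoxalase, PPIH, CEP78, EWSR1 and HNRNPR, with r from 0.86 to 0.90, and none of these 5 was called in any knockdown by edgeR. In parental cells EWSR1 ran from 89.3 to 175 CPM and HNRNPR from 135 to 259 CPM. These correlations describe 12 libraries and carry no test.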

How the data were processed

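The values deposited by the authors are raw counts of each gene. The submitters' processing notes name Trim Galore, STAR and hg38. The sources used here do not give the counting program, strand setting, annotation release, versions or collapsing of molecular identifiers. Of 62705 lines, 3 held 1 broken gene and were left out. A gene ID table supplied symbols for 62624 of 62702 genes.

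Counts were filtered with filterByExpr, scaled by TMM and fitted with edgeR 4.0.16 (R 4.3.3, limma 3.58.1) in 1 robust quasi-likelihood model with a mean for each of 4 groups. The script was tested on simulated data. SE and 95% intervals come from the quasi-likelihood F and include the spread between libraries. DESeq2 1.42.0, limma-voom, other scalings and filters, thinned counts, a replicate block and leaving out libraries were alternatives. A pseudocount of 0.5 counts entered the ratios. Promoter sequences are RefSeq's (3 of 3 matched). Transcripts are from GENCODE release 29. The floor of 3 counts covers counting error only.

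Members and lists were chosen with earlier results of these data known. The genes named are every FOS family gene and shRNA target. They further include up to 3 called genes with the smallest p in shJUNs of each other list, list genes called in all 3 knockdowns, the 4 highest immediate early genes, tested neighbours within 100 kb and the 5 most similar genes per member. Replicates of 1 group differed by more than counting noise, with chi-squared per degree of freedom from 4.91 to 20.2.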

Additional observations from a re-analysis of the deposited data

How the results depend on the processing

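Under 23 alternatives JUND kept its calls and directions in all 6 comparisons, as did JUN in the 5 comparisons other than shYAPTAZ against parental, with JUND in shJUNs against parental from -3.29 to -3.12. JUNB kept its side of the threshold and its direction in shYAPTAZ against shHIF2A alone. The other values changed under some alternatives, and the cause was not tested. With 1 library left out, log2 changes ran from -0.10 to 0.22 for JUN in shYAPTAZ against parental. For JUNB they ran from -1.08 to -0.45 in shJUNs against parental, from -0.63 to 0.00289 in shHIF2A against parental, from -0.29 to 0.34 in shYAPTAZ against parental and from -0.87 to -0.73 in shJUNs against shYAPTAZ. The JUNB to JUN log2 ratio relative to parental lay between -0.17 and 0.50 for shJUNs, and between -0.19 and 0.48 for shYAPTAZ. JUNB in shJUNs against parental missed the threshold with limma-voom (-0.67, adjusted p = 0.0782) and in a fit of its 6 libraries alone (-0.77, 0.0506). JUNB in shJUNs against shHIF2A passed with 6 libraries alone (-0.45, adjusted p = 0.0323). Leaving out parental replicate 1 and shYAPTAZ replicate 1 together was chosen after seeing the data. It gave JUNB -0.63 in shHIF2A against parental (adjusted p = 0.00653), -0.34 in shYAPTAZ against parental (0.167) and -0.45 in shJUNs against shHIF2A (0.0415), and FOSL2 -0.078 in shYAPTAZ (0.807).

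Counts of genes called also moved. With 1 library left out, genes called in shJUNs against parental numbered 846 to 1450 higher and 672 to 1251 lower, in shHIF2A against parental 772 to 1408 higher, in shJUNs against shHIF2A 306 to 694 higher and 165 to 505 lower, and in shJUNs against shYAPTAZ 594 to 1082 lower. In a fit of 6 libraries alone they were 879 higher and 742 lower in shJUNs against shHIF2A, and 710 lower in shYAPTAZ against shHIF2A. Without parental replicate 1 and shYAPTAZ replicate 1, shJUNs against shHIF2A gave 844 higher and 633 lower.

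The replicate block changed no call of JUN, JUNB or JUND, for example JUNB in shJUNs against parental at -0.71 (adjusted p = 0.00894). With it 5 genes within 100 kb were called in shHIF2A rather than 3, and FOSL1 passed as lower in shHIF2A (-0.84) and shYAPTAZ (-1.38). The labels use the numbers only to name technical replicates, so the block was kept as an alternative. Of 18 same-numbered pairs 9 correlated above 0.1 (range -0.01 to 0.37), and 10 of 12 libraries correlated best with one of their own number. Whether libraries of the same number shared a step was not tested, and the main fit ignores any such pairing. Scalings moved the median of all genes by less than 0.1 on the log2 scale.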
